A study of Mus musculus with 6 samples.

Results

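The cell cycle and mitosis genes followed here are a list of 37 genes, of which 29 were measured, among 11281 measured genes. A listed gene was kept where probe sets on the array are annotated to its symbol alone, and the 29 genes are read by 383 probe sets. Of the measured genes, 12 serve DNA replication and the step into it, out of 14 listed, and 17 serve mitosis, out of 23 listed. Cdk1 was found under its older symbol Cdc2a. Mki67, Ccnb1, Pcna, Nusap1, Prc1, Cenpe, Cenpf and Rrm2 were not analysed here.

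A dividing cell switches these genes on in waves. Replication genes are driven by E2F factors as a cell leaves G1, and they license origins, unwind DNA and supply nucleotides. Mitosis genes follow in G2 and M phase, through the MuvB, B-Myb and FoxM1 factors, and they condense chromosomes, build the spindle, check the attachment of chromosomes and trigger anaphase. In mouse epidermis division takes place mainly in the basal layer and in the hair follicle, and suprabasal keratinocytes leave the cycle.

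RNA came from back-skin epidermal keratinocytes of 9.5-week-old female mice on a C57BL6/CBA background, taken without splitting the keratinocytes into fractions. The transgenic mice carry the K14ΔNLef1 transgene, in which the keratin 14 promoter of basal keratinocytes drives Lef1, a transcription factor of the Wnt pathway, without its N-terminal end. They were compared with wild type mice, with 3 samples per genotype, called biological replicates in the labels, and 1 exon array per sample. The comparison asks what the transgene does to expression in the epidermis. The protocols describe flow sorting without a gate that could be found, so the cycle phases present in each sample are not known. Cells are pooled in each sample, so a larger share of dividing cells and more RNA per dividing cell cannot be told apart.

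Values are mean log2 intensities over a gene's probe sets, of which there was a median of 8 per gene. Lef1 read 11.11, 11.13 and 11.24 on the K14ΔNLef1 arrays, against 5.81, 7.02 and 6.26 on the wild type arrays, which matches the labels. The keratinocyte genes Krt14 and Krt5 were bright on every array, at 12.81 to 13.06 and 11.98 to 12.48 in K14ΔNLef1, and at 12.89 to 12.99 and 12.32 to 12.47 in wild type. Keratinocyte markers as a list averaged lower in K14ΔNLef1 and are given below. K14ΔNLef1 replicate 1 stood apart: its median intensity was 154.2, against 190.0 to 203.2 on the other 5 arrays, and its rank correlation with them was 0.808 to 0.828 over all probe sets, while each of the others reached at least 0.925 with another array. Results are therefore given on each K14ΔNLef1 array, and without replicate 1 where that changes a call or moves a printed change of a member or gene list by over 1.5 times. A change is K14ΔNLef1 minus wild type in log2 units, and a gene is said to have risen or fallen where limma's test over all genes gave a Benjamini-Hochberg adjusted p at or under 0.05. That test called 131 of 11281 genes (1.16%), with 37 higher and 94 lower, and the median change of all genes was -0.054.

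Promoters of both kinds of gene differ in known motifs, and those of the genes with the smallest p in each group are shown to let the letters be read beside the values. RefSeq windows (build GRCm38.p6, 250 bases before to 50 bases after the start site) were at hand for 22 of the 29 genes and for none of Mcm4, Ccne2, Ccna2, Foxm1, Aurkb, Kif20a and Tpx2. The stretches printed run from 150 bases before to 30 bases after the start site, 5′ to 3′ on the strand of the gene. Capitals mark 3 motifs on either strand: the cell cycle genes homology region (CHR, letters TTTGAA), which MuvB binds, the CCAAT box (CCAAT), and an E2F site (TTTCCCGC, TTTCGCGC, TTTGCCGC or TTTGGCGC). The mitosis genes are Birc5 at chr11:117849087-117849266 (plus strand), Aurka at chr2:172370541-172370720 (minus strand), Kif11 at chr19:37376232-37376411 (plus strand) and Ccnb2 at chr9:70421525-70421704 (minus strand).
Birc5: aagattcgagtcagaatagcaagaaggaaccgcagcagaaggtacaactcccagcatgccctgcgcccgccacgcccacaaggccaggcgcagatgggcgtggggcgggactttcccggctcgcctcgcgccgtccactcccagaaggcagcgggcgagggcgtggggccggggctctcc
Aurka: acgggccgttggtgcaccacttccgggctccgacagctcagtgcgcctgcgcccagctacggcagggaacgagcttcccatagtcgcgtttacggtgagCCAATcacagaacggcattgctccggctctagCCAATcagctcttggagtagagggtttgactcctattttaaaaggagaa
Kif11: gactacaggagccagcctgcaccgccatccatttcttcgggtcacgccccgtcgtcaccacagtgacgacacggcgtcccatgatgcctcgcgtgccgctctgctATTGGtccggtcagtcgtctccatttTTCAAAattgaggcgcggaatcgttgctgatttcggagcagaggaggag
Ccnb2: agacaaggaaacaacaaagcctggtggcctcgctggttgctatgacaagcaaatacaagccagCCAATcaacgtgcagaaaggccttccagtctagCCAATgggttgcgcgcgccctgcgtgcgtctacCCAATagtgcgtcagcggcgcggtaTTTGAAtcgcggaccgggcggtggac

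The replication genes shown in the same way are Cdc6 at chr11:98908001-98908180 (plus strand), Rrm1 at chr7:102441545-102441724 (plus strand) and Ccne1 at chr7:38107461-38107640 (minus strand).
Cdc6: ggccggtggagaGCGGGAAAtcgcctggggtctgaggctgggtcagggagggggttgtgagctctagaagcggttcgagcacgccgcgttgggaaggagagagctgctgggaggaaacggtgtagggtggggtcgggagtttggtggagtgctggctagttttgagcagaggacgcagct
Rrm1: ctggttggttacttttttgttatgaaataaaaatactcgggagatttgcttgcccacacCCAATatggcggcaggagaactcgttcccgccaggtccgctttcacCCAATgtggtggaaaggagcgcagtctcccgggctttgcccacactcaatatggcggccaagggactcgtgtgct
Ccne1: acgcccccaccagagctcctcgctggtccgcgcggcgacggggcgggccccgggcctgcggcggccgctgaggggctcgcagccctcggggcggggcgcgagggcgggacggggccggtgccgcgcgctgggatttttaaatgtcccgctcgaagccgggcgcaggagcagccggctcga

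In the windows of 300 bases the CHR letters stood in 10 of 12 mitosis members with a window (83.3%) and in 1 of 10 replication members (10%), Mcm2, against 17.9% of all 32851 windows. E2F letters ran the other way, in 6 of 10 replication members (60%), Mcm3, Mcm5, Mcm6, Mcm7, Cdc6 and Cdt1, and in 1 of 12 mitosis members (8.33%), Cdk1, against 2.26% of all windows. The CCAAT box was in 11 of 12 mitosis members (91.7%), 6 of 10 replication members (60%) and 37.4% of all windows. The mitosis genes shown do not all carry the CHR letters: Kif11 holds them on the other strand 19 bases before its start, Ccnb2 holds them 5 bases after its start, and Aurka holds them 33 bases after its start, beyond the stretch printed. Birc5 and Ccne1 hold none of the 3 motifs in this window. Letters of the E2F sites on opposite strands overlap in Mcm5 and Mcm6, and no letter match is evidence of binding. With a shorter E2F motif of 7 letters, the counts were 7 of 10 and 1 of 12, against 9.57% of windows, and with a second CHR form (TTCGAA) added they were 11 of 12 mitosis and 2 of 10 replication members, against 19.2%; both forms were chosen after seeing the data.

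**Figure D1:**
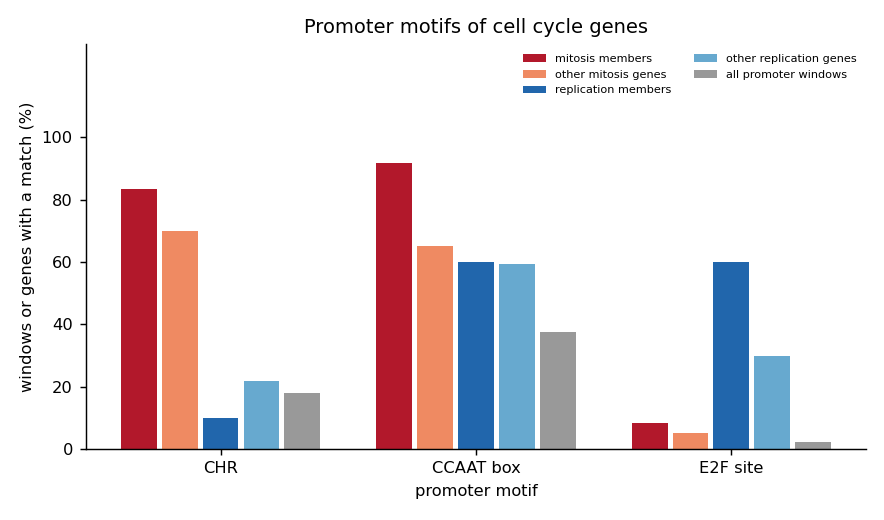
Share of promoter windows (percent, bars from 0) that hold the CHR, CCAAT and E2F letters, in mitosis members (12 with a window), other mitosis genes (40), replication members (10), other replication genes (37) and all 32851 windows. The CHR bars are high for both mitosis lists (83.3% and 70%), and the E2F bars for both replication lists (60% and 29.7%).

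Mitosis genes averaged higher and replication genes lower in K14ΔNLef1 keratinocytes, but no single member passed the test over all genes. The mean change was 0.46 over the 17 mitosis genes, with 16 of them higher and a median of 0.474, and -0.29 over the 12 replication genes, with 9 of them lower and a median of -0.392. Among all genes 42.8% were higher. Limma called 0 of the 29 members, beside 1.16% of all genes. At an unadjusted p under 0.05 there were 7 members, namely the mitosis genes Birc5, Aurka, Kif11, Kif20a, Ccnb2 and Bub1b, all higher, and the replication gene Cdc6, lower, beside 11.8% of all genes.

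**Figure D2:**
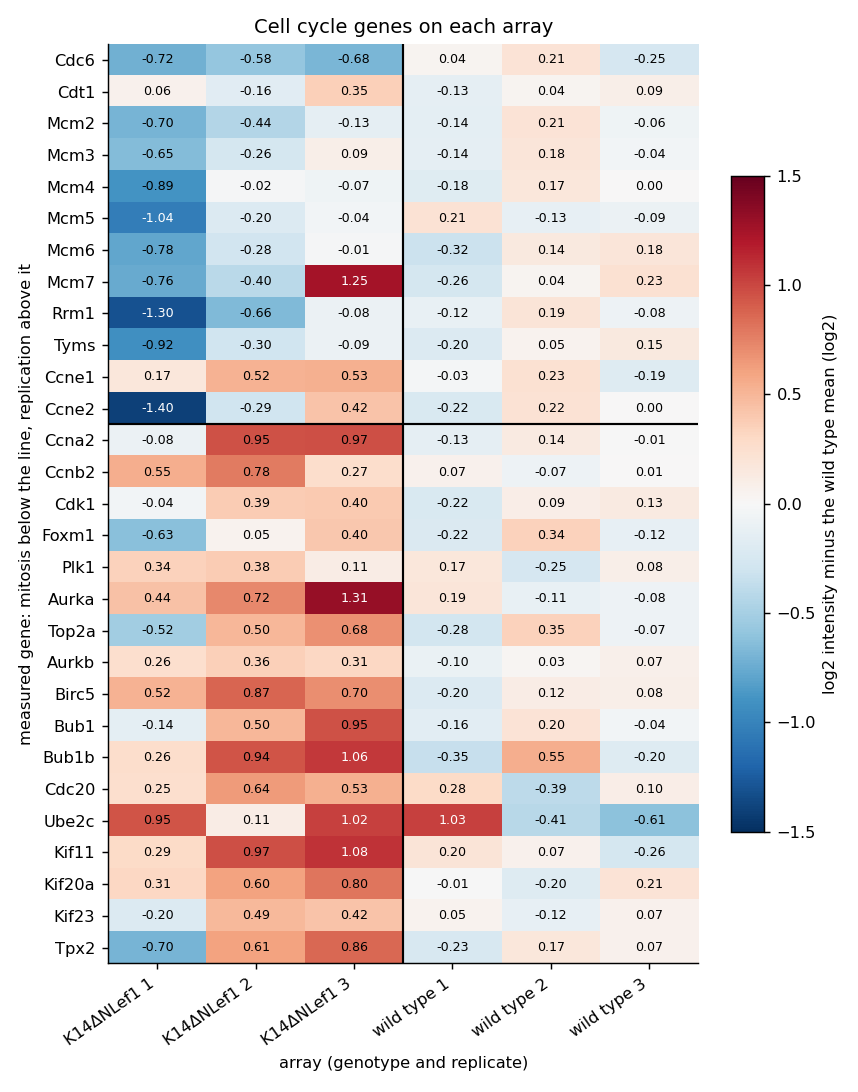
Log2 intensity of each of the 29 measured members minus its wild type mean (colour and printed value), on the 3 K14ΔNLef1 arrays at the left and the 3 wild type arrays at the right, with replication genes above the horizontal line and mitosis genes below it. On K14ΔNLef1 replicates 1, 2 and 3, 10, 17 and 17 of the 17 mitosis genes are above 0, and 2, 1 and 5 of the 12 replication genes.

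The result differed from one K14ΔNLef1 array to the next for each group alone, and less so for the distance between the groups. Relative to the wild type mean, mitosis genes averaged 0.11, 0.58 and 0.70 on K14ΔNLef1 replicates 1, 2 and 3, against 0.00, 0.03 and -0.03 on wild type replicates 1, 2 and 3. Replication genes averaged -0.74, -0.26 and 0.13 on the same K14ΔNLef1 arrays, against -0.13, 0.13 and -0.00 in wild type. Every K14ΔNLef1 array thus lay above the wild type arrays for mitosis genes, while for replication genes replicate 3 lay within their range. Mitosis minus replication was 0.85, 0.84 and 0.57 on the K14ΔNLef1 arrays, against 0.13, -0.10 and -0.03 on the wild type arrays. The means of that distance were 0.754 ± 0.159 in K14ΔNLef1 and 0.00 ± 0.118 in wild type (SD, n = 3 each), where the wild type mean is 0 by construction. The groups did not overlap and stood farther apart than their spread, which is a description only. No p is given for these averages, because the genes were chosen with earlier results of these data known.

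Leaving out K14ΔNLef1 replicate 1 moved the mean change of replication genes to -0.06, and that of mitosis genes to 0.64, while the distance was 0.70. Without replicate 3 the mean of replication genes was -0.50. The size of that mean therefore rested largely on which of these arrays was counted. A shift of whole arrays cannot alter the distance, but it alters each group: the median change of all genes was 0.055 after arrays were brought to the same median, in place of -0.054. Relative to the median of all genes, mitosis genes averaged 0.52 and replication genes -0.24, values that a shift of whole arrays cannot alter either. They were 0.54 and -0.22 after quantile normalization, and 0.66 and -0.05 without replicate 1. Samples with neighbouring numbers in the array descriptions gave distances of 0.88, 0.71 and 0.67 within their K14ΔNLef1 and wild type pairs.

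**Figure D3:**
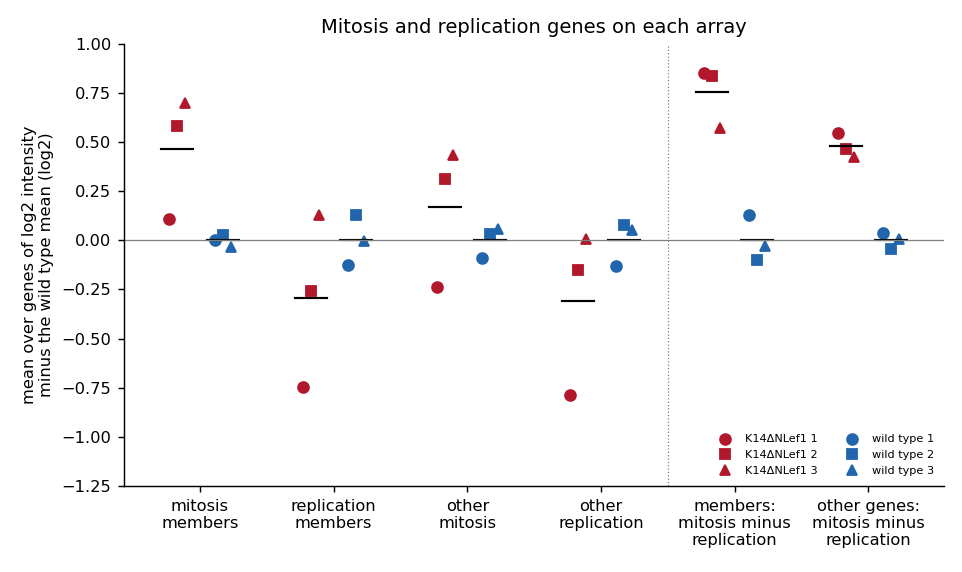
Mean over genes of log2 intensity minus the wild type mean, 1 point per array (red K14ΔNLef1, blue wild type, symbols for replicates, black lines for group means), for the members, for the other genes of both kinds, and for mitosis minus replication. The distances on the K14ΔNLef1 arrays, 0.57 to 0.85 for members and 0.42 to 0.55 for the other genes, lie above every wild type array.

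Replication begins with origin licensing, where Cdc6 loads the helicase onto origins together with Cdt1. Cdc6 read 6.21, 6.36 and 6.25 in K14ΔNLef1, against 6.97, 7.14 and 6.68 in wild type. All 3 transgenic arrays lay close together and below every wild type array, including replicate 1, which did not stand out here. The change was -0.66 (SE 0.18), a fold of 0.632 (limma adjusted p of 0.190), and without replicate 1 it was -0.63. Cdc6 was the 1 replication gene whose arrays were all below wild type, beside 11.8% of all genes. Cdt1, which works in the same step, differed by 0.08.

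Mcm2 to Mcm7 form the helicase that unwinds DNA at the fork. Mcm2 to Mcm6 were lower by 0.27 to 0.43, with changes of -0.42, -0.27, -0.33, -0.43 and -0.36 in the order of their numbers, and their mean was -0.81, -0.24 and -0.03 on K14ΔNLef1 replicates 1, 2 and 3. The shortfall was thus deepest on replicate 1 and close to 0 on replicate 3. Without replicate 1 the mean change of these genes was -0.14, in place of -0.36, and those of Mcm3 to Mcm6 were -0.08, -0.04, -0.12 and -0.15 in the order of their numbers. Mcm2 read 7.18, 7.43 and 7.74 in K14ΔNLef1, against 7.73, 8.08 and 7.81 in wild type, which left replicate 3 just inside the wild type range. Its change was -0.42 (SE 0.21) with a limma adjusted p of 0.498. Mcm7 read 6.29, 6.65 and 8.30 in K14ΔNLef1, against 6.79, 7.09 and 7.28 in wild type, and differed by 0.03 on 3 probe sets, with replicate 3 far above the others. Its change was 0.42 without replicate 1 and -0.58 without replicate 3.

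Rrm1, the large subunit of ribonucleotide reductase, and Tyms, thymidylate synthase, supply deoxynucleotides. Rrm1 read 8.13, 8.77 and 9.35 in K14ΔNLef1, against 9.32, 9.63 and 9.35 in wild type. Replicates 1 and 2 were below wild type and replicate 3 was level with it. The change of -0.68 (SE 0.30, limma adjusted p of 0.427) was -0.37 without replicate 1. Tyms read 7.08, 7.70 and 7.91 in K14ΔNLef1, against 7.79, 8.05 and 8.15 in wild type, with replicate 3 again within the wild type range. Its change was -0.44 (SE 0.25, limma adjusted p of 0.568), and -0.19 without replicate 1.

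The E-type cyclins, which activate Cdk2 at the entry into S phase, differed in opposite directions. Ccne1 read 6.08, 6.42 and 6.44 in K14ΔNLef1, against 5.87, 6.13 and 5.71 in wild type. Replicates 2 and 3 lay above all wild type arrays, while replicate 1 did not. The difference was 0.41 (SE 0.20, limma adjusted p of 0.486), the largest above 0 among replication genes, at a level among the lowest 25% of genes. Ccne2 read 6.58, 7.69 and 8.41 in K14ΔNLef1, against 7.76, 8.21 and 7.99 in wild type. Its arrays lay on both sides of wild type, with a mean change of -0.42, and 0.06 without replicate 1.

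Among the genes of mitotic entry, Aurka, a kinase of centrosomes and spindle poles, differed most. It read 7.61, 7.89 and 8.48 in K14ΔNLef1, against 7.35, 7.06 and 7.09 in wild type, with every transgenic array above every wild type one. The change was 0.83 (SE 0.25), or 1.77-fold, with a limma adjusted p of 0.219, and all 9 of its probe sets were higher. Ccnb2, a B-type cyclin that activates Cdk1, read 8.34, 8.57 and 8.06 in K14ΔNLef1, against 7.85, 7.72 and 7.79 in wild type. Here replicate 1 was as high as the rest, and the change was 0.53 (SE 0.19, limma adjusted p of 0.315).

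Ccna2, the cyclin of S phase and early mitosis, read 8.003, 9.035 and 9.056 in K14ΔNLef1, against 7.956, 8.226 and 8.076 in wild type. Replicates 2 and 3 stood well above wild type and replicate 1 lay among the wild type arrays. The change of 0.61 (SE 0.29) had a limma adjusted p of 0.485, and without replicate 1 the change of 0.96 (SE 0.15) passed, with an adjusted p of 0.0289. Foxm1, a transcription factor of mitosis genes, read 6.83, 7.52 and 7.86 in K14ΔNLef1, against 7.24, 7.80 and 7.34 in wild type. Its arrays overlapped, and the difference of -0.06 (SE 0.29, limma adjusted p of 0.958) became 0.05 with arrays at the same median and 0.23 without replicate 1. Cdk1, the kinase that starts mitosis, and Plk1, a kinase of entry and spindle assembly, differed by 0.25 (0.39 without replicate 1) and 0.28. Top2a, which untangles sister DNA before segregation, read 8.30, 9.32 and 9.50 in K14ΔNLef1, against 8.54, 9.17 and 8.75 in wild type. All 34 of its probe sets were above the wild type mean on replicates 2 and 3, and 9 were on replicate 1. Its mean change was 0.22, with 0.59 without replicate 1 and -0.01 without replicate 3.

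The chromosomal passenger complex and the spindle checkpoint guard the attachment of chromosomes. Birc5, or survivin, a passenger subunit, read 9.23, 9.58 and 9.41 in K14ΔNLef1, against 8.51, 8.83 and 8.80 in wild type. This was the member with the smallest p, with every transgenic array above every wild type array and all 7 probe sets higher. The change was 0.70 (SE 0.19), or 1.62-fold, with a limma adjusted p of 0.168; fits that left out 1 array gave 0.0686 to 0.532. Aurkb, the kinase of that complex, differed by 0.31 and its arrays did not overlap either, at 7.64 to 7.75 in K14ΔNLef1 and 7.28 to 7.46 in wild type. Of its 11 probe sets 10 were higher, but with their median in place of their mean the Aurkb change was 0.02. The checkpoint genes Bub1 and Bub1b were higher by 0.44 (0.73 without replicate 1) and 0.75. Bub1b was higher on 25 of 25 probe sets, though its wild type replicate 2, at 7.44, exceeded K14ΔNLef1 replicate 1, at 7.16.

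Cdc20 activates the ubiquitin ligase that starts anaphase, and Ube2c is an enzyme that works with it. They differed by 0.47 and 0.69, on 2 probe sets and 1 probe set, and the wild type arrays of Ube2c spread from 8.25 to 9.89, and in both genes the genotypes overlapped. The 2 probe sets of Cdc20 did not agree, with changes of 0.95 and -0.005.

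Kinesins and their partners build the spindle and its midzone. Kif11, the motor that separates spindle poles, read 7.60, 8.27 and 8.38 in K14ΔNLef1, against 7.50, 7.37 and 7.04 in wild type. The genotypes did not overlap, although replicate 1 was only just above wild type. The change was 0.78 (SE 0.25, limma adjusted p of 0.260), with 19 of 19 probe sets higher, and without replicate 1 the change of 1.02 (SE 0.18) passed, with an adjusted p of 0.0417. Kif20a, a kinesin of the midzone, read 7.50, 7.79 and 7.99 in K14ΔNLef1, against 7.17, 6.99 and 7.39 in wild type. Its genotypes were separate on all arrays, with a change of 0.57 (SE 0.20, limma adjusted p of 0.311) and 20 of 23 probe sets higher. Kif23, a motor of the midzone, and Tpx2, a spindle assembly factor, differed by 0.24 and 0.26, and both were below the wild type mean on replicate 1. Without replicate 1 they differed by 0.45 and 0.73, and without replicate 3 by 0.14 and -0.05.

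Counting across groups, 6 of the 17 mitosis genes had every K14ΔNLef1 array above every wild type array, namely Ccnb2, Aurka, Aurkb, Birc5, Kif11 and Kif20a, and 6.91% of all genes did. Without replicate 1, limma called 2 mitosis genes higher, Ccna2 and Kif11, where 1.02% of all genes rose. With weights for each array, estimated from the data, it called 12 members (9 mitosis genes higher, and 2 replication genes lower and 1 higher), beside 11.5% of all genes. That fit gave K14ΔNLef1 replicate 2 a weight of 5.18 and replicate 1 a weight of 0.150, so it leaned on 1 transgenic sample.

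**Figure D4:**
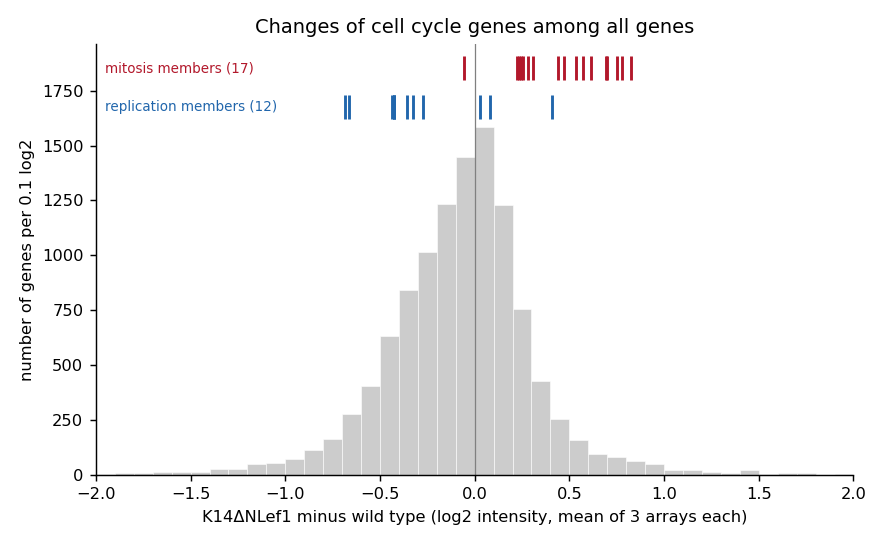
Histogram of the change (K14ΔNLef1 minus wild type, log2, 3 arrays each) of the measured genes, in steps of 0.1 from -2 to 2, with 53 genes outside. Ticks above it mark the 17 mitosis and 12 replication members: 16 mitosis ticks are above 0, and 9 replication ticks are below it.

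Single probe sets leaned the same way within genes. The gene values are means of these probe sets, so this is not a separate result. Of 229 probe sets of mitosis members, 192 were higher (83.8%), and of 154 probe sets of replication members, 119 were lower, leaving 22.7% higher, while 42.5% of all probe sets were higher. On K14ΔNLef1 replicates 1, 2 and 3, 51.1%, 89.1% and 92.6% of the mitosis probe sets lay above their wild type means, and 17.5%, 24.7% and 49.4% of the replication probe sets, against 39.2%, 44.6% and 53.0% of all probe sets. Probe sets of 1 gene share its RNA and are not replicates. Tested singly with limma, 0 of the 383 passed, beside 0.19% of all probe sets, and the smallest adjusted p was 0.0998. At an unadjusted p under 0.05 there were 48, beside 8.13% of all probe sets.

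**Figure D5:**
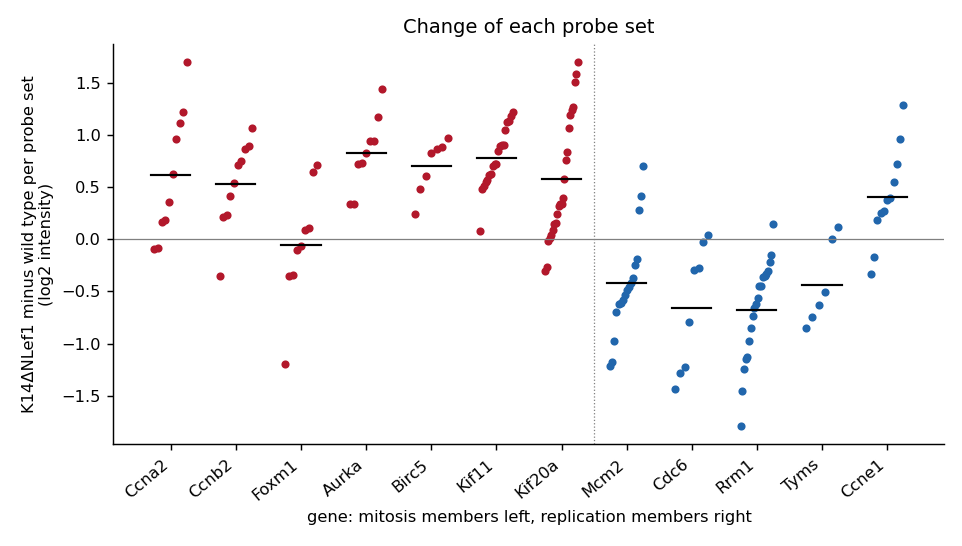
Change of each probe set (K14ΔNLef1 minus wild type, log2) for the 12 members whose values are given on every array by the naming rule, 1 point per probe set and a line at the gene mean. All points of Aurka, Birc5 and Kif11 lie above 0, while 7 of 8 points of Cdc6 and 19 of 20 of Rrm1 lie below it.

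Other genes of both processes, not on the list above, leaned the same way on average, with smaller changes in mitosis. Among all genes 42.8% were higher. Of 49 measured other mitosis genes, 34 were higher and 0 passed limma's test (at an unadjusted p under 0.05, 4 were higher, or 8.16%, beside 4.21% of all genes). Their mean change was 0.17, and 0.37 without replicate 1. The values were -0.24, 0.31 and 0.43 on K14ΔNLef1 replicates 1, 2 and 3, against -0.09, 0.03 and 0.06 on wild type replicates 1, 2 and 3. Replicate 1 thus lay below every wild type array here, unlike for the mitosis members. All measured genes averaged -0.25, -0.04 and 0.05 on K14ΔNLef1 replicates 1, 2 and 3, so the value on replicate 1 was near that of all genes. Of 43 other replication genes, 4 were higher and 0 passed (at an unadjusted p under 0.05, 3 were lower, or 6.98%, beside 7.58% of all genes). Their mean change was -0.31, and -0.07 without replicate 1, with values of -0.79, -0.15 and 0.01, against -0.13, 0.08 and 0.05 in wild type. Mitosis minus replication was 0.55, 0.46 and 0.42 on the K14ΔNLef1 arrays, against 0.04, -0.05 and 0.01 on the wild type arrays. The smallest p among these mitosis genes was that of Kif2c, a kinesin that takes microtubules apart at centromeres, at 6.83, 6.63 and 6.69 in K14ΔNLef1, against 5.78, 5.53 and 6.09 in wild type. It was high on all 3 transgenic arrays, with a change of 0.92 (SE 0.20) and a limma adjusted p of 0.0842, and was followed by the kinesin Kif18b with 0.61 (limma adjusted p of 0.261). Among replication genes it was Uhrf1, which brings DNA methylation to newly copied strands, at 8.90, 9.16 and 9.38 in K14ΔNLef1, against 9.86, 10.15 and 10.01 in wild type. All 3 transgenic arrays were lower, with a change of -0.86 (SE 0.19, limma adjusted p of 0.0967), and the primase gene Prim1 followed with -0.77 (limma adjusted p of 0.228).

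Genes that push or restrain the cycle showed no common direction. Of 15 measured drivers, 7 were higher and 0 passed limma's test, and the 2 at an unadjusted p under 0.05 (13.3%, beside 11.8% of all genes) were Cks1b, a partner of cyclin-dependent kinases, with 0.68 (limma adjusted p of 0.204), and the G1 cyclin Ccnd1, with -0.81 (limma adjusted p of 0.214). Of 19 measured brakes, 9 were higher and 1 passed, and at an unadjusted p under 0.05 1 was higher and 2 were lower (15.8%, beside the same 11.8%). The gene that passed was Cdkn1a, or p21, an inhibitor of cyclin-dependent kinases, at 8.49, 8.79 and 9.16 in K14ΔNLef1, against 10.19, 10.03 and 9.99 in wild type. All transgenic arrays were lower, with a change of -1.26 (SE 0.21) and a limma adjusted p of 0.0339. It passed in 2 of the 6 fits that each left out 1 array, those without K14ΔNLef1 replicate 1 (0.0294) and replicate 3 (0.0385). Its adjusted p was 0.107 without K14ΔNLef1 replicate 2, and 0.173, 0.149 and 0.155 without wild type replicates 1, 2 and 3.

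Markers of other cells that divide or bring their own RNA varied across the same arrays. T cell markers, 11 of 14 measured, averaged -0.18, 1.37 and 0.72 above the wild type mean on K14ΔNLef1 replicates 1, 2 and 3, against 0.37, -0.27 and -0.10 on wild type replicates 1, 2 and 3. Langerhans cell and antigen presentation markers, 9 of 10 measured, averaged 0.15, 1.31 and 0.71 in K14ΔNLef1, against 0.40, -0.36 and -0.05 in wild type. Both lists were lower on replicate 1 than on replicates 2 and 3. The same held for mitosis genes, replication genes, keratinocyte markers and the average of all genes (-0.25, -0.04 and 0.05), so it was not particular to these lists. Both marker lists were highest on replicate 2, while mitosis genes and the average of all genes were highest on replicate 3. Their summed linear intensity was 2696 to 8591 for T cells and 2032 to 5222 for Langerhans cells in K14ΔNLef1, against 2520 to 4059 and 1886 to 2654 in wild type. Keratinocyte markers, 12 of 12 measured, averaged -0.62, -0.29 and -0.09 in K14ΔNLef1, against -0.06, 0.00 and 0.06 in wild type, with sums of 28884 to 38824 in K14ΔNLef1 and 39827 to 42696 in wild type. Of these markers 11 were lower and 1 was higher, where 42.8% of all genes were higher. In 5 of them every K14ΔNLef1 array lay below every wild type array, beside 11.8% of all genes. Hair follicle matrix and shaft markers, 9 of 10 measured, averaged 0.03, 0.21 and 0.17 in K14ΔNLef1, against -0.05, -0.02 and 0.07 in wild type. Their sums were 867 to 979 in K14ΔNLef1 and 814 to 855 in wild type. Of these 9 markers 5 were higher and 4 lower, with a median change of 0.02 and a highest of 1.22. Their medians over markers were -0.004, -0.047 and -0.050 on the K14ΔNLef1 arrays, against -0.032, 0.057 and 0.101 on the wild type arrays. On K14ΔNLef1 replicates 1, 2 and 3, 4, 4 and 3 of them lay above their wild type means. The averages thus do not describe the typical marker of this list. Markers of macrophages, fibroblasts, endothelium and melanocytes averaged between -0.05 and 0.82 on the K14ΔNLef1 arrays. In limma's test 0 of the 75 markers measured passed. At an unadjusted p under 0.05, 13 were higher, namely 3 each of the T cell, Langerhans cell and melanocyte lists and 2 each of the hair follicle and fibroblast lists, beside 4.21% of all genes. In the same way 2 were lower, 1 each of the fibroblast and keratinocyte lists, beside 7.58% of all genes. An array gives no reading of 0, so absent markers cannot be counted, and the part of these cells in the result was not tested.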

How the data were processed

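The authors deposited linear intensities, 1 per array for each probe set. Their tools were Affymetrix Power Tools with RMA, on build mm9, per the submitters' processing notes, which name no versions. The labels' protocols describe flow sorting before extraction and amplification of small RNA amounts, and no sort gate was found in them. Of 114330 probe sets, 109751 name 1 symbol, 834 name several and 3745 none, by the platform annotation; 1226 symbols were updated. Log2 was taken, probe sets were averaged per gene, and limma 3.58.1 (R 4.3.3; lmFit, eBayes, two-sided) tested genotype on all 6 arrays, adjusting over all genes. The fit was tested on simulated data, with changes larger than that of any member and an equal spread on all arrays. That test does not tell how well changes of the members' size are found. The members and lists were chosen with earlier results of these data known. Members are named once each; arrays are shown for the 5 smallest p per group, the extremes, and members passing with any array left out. Mcm7, Ccne2, Top2a, Aurkb, Bub1b and Ube2c were added after their values were seen. Tables and figures used Python 3.11.15, pandas 2.3.3 and matplotlib 3.10.9. The number of arrays limits the precision.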

Additional observations from a re-analysis of the deposited data

How the results depend on the processing

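Over the alternatives run, the mean change ran from 0.345 to 0.640 for mitosis genes (0.463 reported), from -0.501 to -0.0644 for replication genes (-0.291 reported, with the extremes reached by leaving out K14ΔNLef1 replicate 3 and 1) and from 0.655 to 0.865 for their difference; with 1 array left out the difference was 0.704 to 0.845. The alternatives were other summaries of probe sets, filters, scalings, variance models, blocks, members left out and arrays left out. The trend and robust settings of eBayes and the blocks alter only the p in this balanced design. They could not move a change or turn a sign, and the counts of alternatives below include them. The count of members past the threshold, 0, was 12 with array weights, 0 to 2 with 1 array left out, and 2 with arrays at the same median and K14ΔNLef1 replicate 1 left out, a setting chosen after seeing the data; 1 member probe set passed after quantile normalization. Genes past the threshold, 131, numbered 236 with arrays at the same median (103 higher, 133 lower), 201 after quantile normalization (89 higher, 112 lower), 1297 with array weights, 78 with the array number as a covariate, 28 to 239 with 1 array left out (239, 77 and 69 without K14ΔNLef1 replicates 1, 2 and 3, the first with 115 higher and 124 lower, and 46, 31 and 28 without wild type replicates 1, 2 and 3) and 241 with the same median and replicate 1 left out. With the replicate block 75 genes and 0 members passed. Cdkn1a kept its sign in 17 of 17 alternatives and missed the threshold in 7, among them the replicate block (adjusted p of 0.106), the adjacent numbers as a block (0.0699) and the array number as a covariate (0.0771). Same-numbered samples deviated with correlations of -0.163, -0.173 and 0.0358, and 0 of 3 K14ΔNLef1 samples correlated best with its own number. These values show no pairing by number. They cannot exclude it, because deviations from a mean of 3 arrays offset one another. Of the 29 members, 23 kept their sign in all alternatives that tested them. The other 6 kept it in 10 (Foxm1), 13 (Cdt1), 14 (Mcm7), 15 (Ccne2 and Tpx2) and 16 (Top2a) of 17. The filter on dim genes leaves the members Ccne1 and Bub1 out, and also Kif2c. The table gives no background signal, so which members lie near background was not tested.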
